A study of Bos taurus with 129 samples.

Results

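Cell cycle and proliferation genes were followed in the whole blood of beef steers. They are 40 genes chosen by name, and all 40 symbols were found among the 32395 genes of the count table. The rule used no measured value, but the list was drawn up with earlier results of these data known. All 40 passed the filter on low counts, and none was at 0 in any library.

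The products of these genes copy the genome and divide it between daughter cells. Licensing factors load a helicase at origins of replication before S phase, nucleotide enzymes supply deoxynucleotides during it, and cyclins with CDK1 then drive the cell into mitosis, where kinases, motors and kinetochore proteins sort the chromosomes. In blood, mature neutrophils, red cells and platelets do not divide, so that transcripts of this kind are generally ascribed to activated lymphocytes, plasmablasts and immature cells released from the bone marrow.

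The steers were commercial crossbreds that had been transported and were housed in drylot pens, and 26 of them were bled on day 0 and again on days 13, 28, 45 and 60. Of these, 12 were labelled healthy, 4 in each supplement group, and 14 carried the label BRD, for bovine respiratory disease, with 4 in AAC, 3 in COMBO and 7 in INR. INR steers received Cu, Co, Mn and Zn as sulfate salts in the feed. AAC steers received Cu, Mn and Zn as amino acid complexes and Co as glucoheptonate. COMBO steers received the same organic source as AAC and were also drenched orally with trace minerals before shipment, on day 0 and with any treatment for disease. All groups received vaccines against respiratory viruses and the dewormer doramectin on day 0, and were vaccinated again between the samplings of days 13 and 28, so no group stands for unvaccinated cattle. Ages, and when each BRD steer fell ill relative to the samplings, are not given in the sources used here. All healthy COMBO steers came from pen 5 and all COMBO steers with BRD from pen 6, so that label and pen cannot be told apart within COMBO. The AAC pens 2 and 8 and the INR pens 3 and 4 held steers of both labels, and INR pen 7 held steers with BRD alone. Supplements were assigned to whole pens, so supplement and pen group cannot be told apart, although the steers were later rotated between pens. Steers that shared a pen were treated as separate replicates. The library of healthy AAC animal 48 at day 13 had been removed by the authors, which left 11 healthy steers on that day.

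Total counts per library ran from 31613545 to 61692136, with a median of 44268685. Levels below are CPM, read counts scaled to a common normalised library size, and differences are in log2 units. A gene was called when its adjusted p passed an FDR of 0.10. Markers of B cells, T cells, mature neutrophils, monocytes and platelets were found in the libraries, as whole blood should hold, and so were erythroid and neutrophil precursor markers, with ALAS2 (median 26.9 CPM), KLF1 (17.3), TFRC (35.1), BPI (9.07), CEBPE (4.19) and MPO (2.02) at 0 in no library, although EPOR, PRTN3 and CAMP were at 0 in more than 90 libraries each. Within these libraries of mixed cells, more dividing cells and more RNA per dividing cell cannot be told apart.

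The members formed a tight set across libraries, with few exceptions. Over the 780 pairs of members, Pearson's r between log2 CPM values across libraries had a median of 0.734, from -0.322 to 0.971. Libraries of a steer share that steer, so the coefficients are given as a description. CCNB1, the B-type cyclin that activates CDK1 for mitotic entry, followed the mean of the other 39 members most closely (r = 0.956), ahead of the central spindle motor KIF20A (0.952) and the spindle assembly factor TPX2 (0.948). Lowest were the microtubule-bundling NUSAP1 (0.10) and the mitotic kinase PLK1 (0.17), followed by the helicase subunit MCM7 (0.38), the helicase loader CDC6 (0.39), MCM2 (0.51), the midzone motor KIF23 (0.52) and CDC45 (0.56), which joins the active helicase. CDC6 was also barely measured, with a median of 7 counts per library and a range of 1 to 279. MCM7, PLK1, KIF23 and NUSAP1 are among 13 members that overlap another annotated gene, as are TYMS, CCNA2, CCNB2, CDK1, BUB1B, KIF20A, PRC1, CENPF and NCAPG, and whether strand was used in counting is not stated, so reads of the overlapping pairs could be exchanged.

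Between the roles, the means of the 4 cyclin and CDK1 genes and of the 8 mitotic kinase, checkpoint and APC/C genes were the most alike (r = 0.971), and those of the 9 licensing and fork genes and the 9 spindle genes the least (r = 0.740). Among the genes outside the lists compiled here, the 10 whose log2 CPM was most like the mean of the members, of 18791 ranked over all libraries, were SPAG5 (r = 0.967), NCAPG2 (0.942), CCNF (0.941), PCLAF (0.941), MTFR2 (0.937), NEK2 (0.925), CEP55 (0.914), SPDL1 (0.914), ESCO2 (0.907) and PRR11 (0.907). TM6SF1 (-0.645), KLC4 (-0.579) and TMEM164 (-0.562) were the least alike.

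The mean log2 CPM of the 40 members was lowest on day 0 under both labels, higher on days 13 and 28, and lower again by day 60. In healthy steers it averaged 4.39 ± 0.21 (SD, 12 steers) on day 0, 4.61 ± 0.37 (11 steers) on day 13, 4.63 ± 0.33 on day 28, 4.59 ± 0.29 on day 45 and 4.47 ± 0.29 on day 60. In the 14 steers with BRD it averaged 4.41 ± 0.41, 4.77 ± 0.32, 4.77 ± 0.22, 4.59 ± 0.26 and 4.53 ± 0.33 on the same days. The ranges overlapped between every pair of days, and the widest was that of day 0 in BRD, from 3.63 to 5.09.

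**Figure D1:**
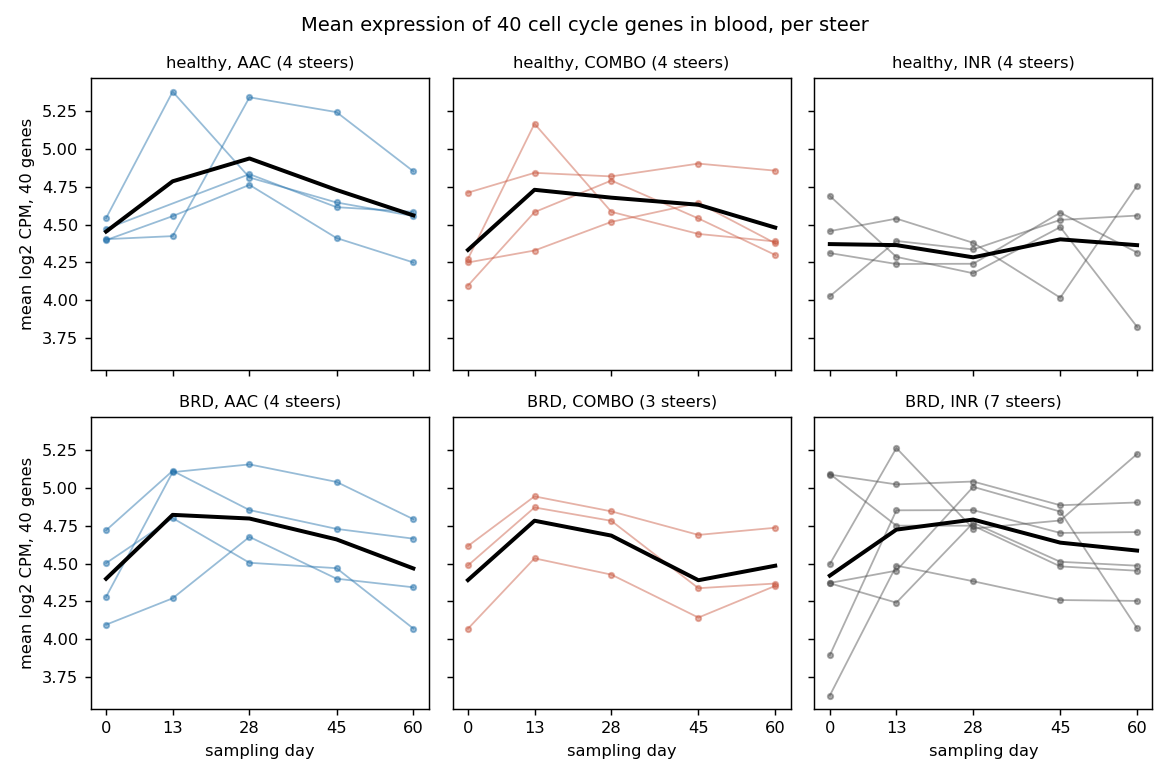
Mean log2 CPM of the 40 members per library (y axis) against sampling day (x axis), with a panel for each supplement group and disease label. Thin lines are steers and thick lines the group mean. The healthy INR steers lie between 4.18 and 4.38 on day 28, below the healthy COMBO steers (4.52 to 4.82) and the healthy AAC steers (4.76 to 5.34), whereas the 7 INR steers with BRD start from 3.63 to 5.09 on day 0.

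Within steers, the mean of the members was higher on day 13 than on day 0 in 9 of 11 healthy steers, by 0.234 ± 0.385 on average, and in 11 of 14 steers with BRD, by 0.357 ± 0.395. All 5 steers in which it was lower on day 13 had been fed INR, and they came from pens 4 and 7. The mean rose in the INR steers of pen 3, by 0.365 in animal 10, 0.767 in animal 23 and 0.957 in animal 43. It also rose in animal 50 of pen 4 and in animals 27 and 29 of pen 7. Among the INR steers it was higher in 2 of 4 healthy animals and in 4 of 7 with BRD. In AAC and COMBO it was higher in 3 of 3 and 4 of 4 healthy steers and in 4 of 4 and 3 of 3 steers with BRD. The day of a steer's highest value was day 13 or 28 in 12 of the 14 steers with BRD and in 6 of the 12 healthy steers. Of the variation in this mean over all libraries, 44.39% lay between steers and 13.4% between days.

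Day 13 was then compared with day 0 gene by gene within steers. In the BRD steers 30 of the 40 members rose and none fell, with a median log2 difference of 0.35 over the 40 against 0.0046 over all 18937 genes tested. Of all genes, 9.08% were called higher on day 13 and 8.35% lower. In the healthy steers 12 members rose and none fell, with a median of 0.28 against 0.0059, where 6.11% of all genes were called higher and 4.84% lower. At an unadjusted p under 0.05 there were 33 members in BRD, where all genes gave 26.5%, and 25 in healthy steers, where all genes gave 21.8%.

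The healthy count rested on few steers. It was 4 without COMBO animal 3, 5 without COMBO animal 6 or AAC animal 46, 7 without COMBO animal 42 or INR animal 50, 19 without AAC animal 49 and 25 without INR animal 30. Without the steer as a block in the model, 1 healthy and 17 BRD members were called.

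**Figure D2:**
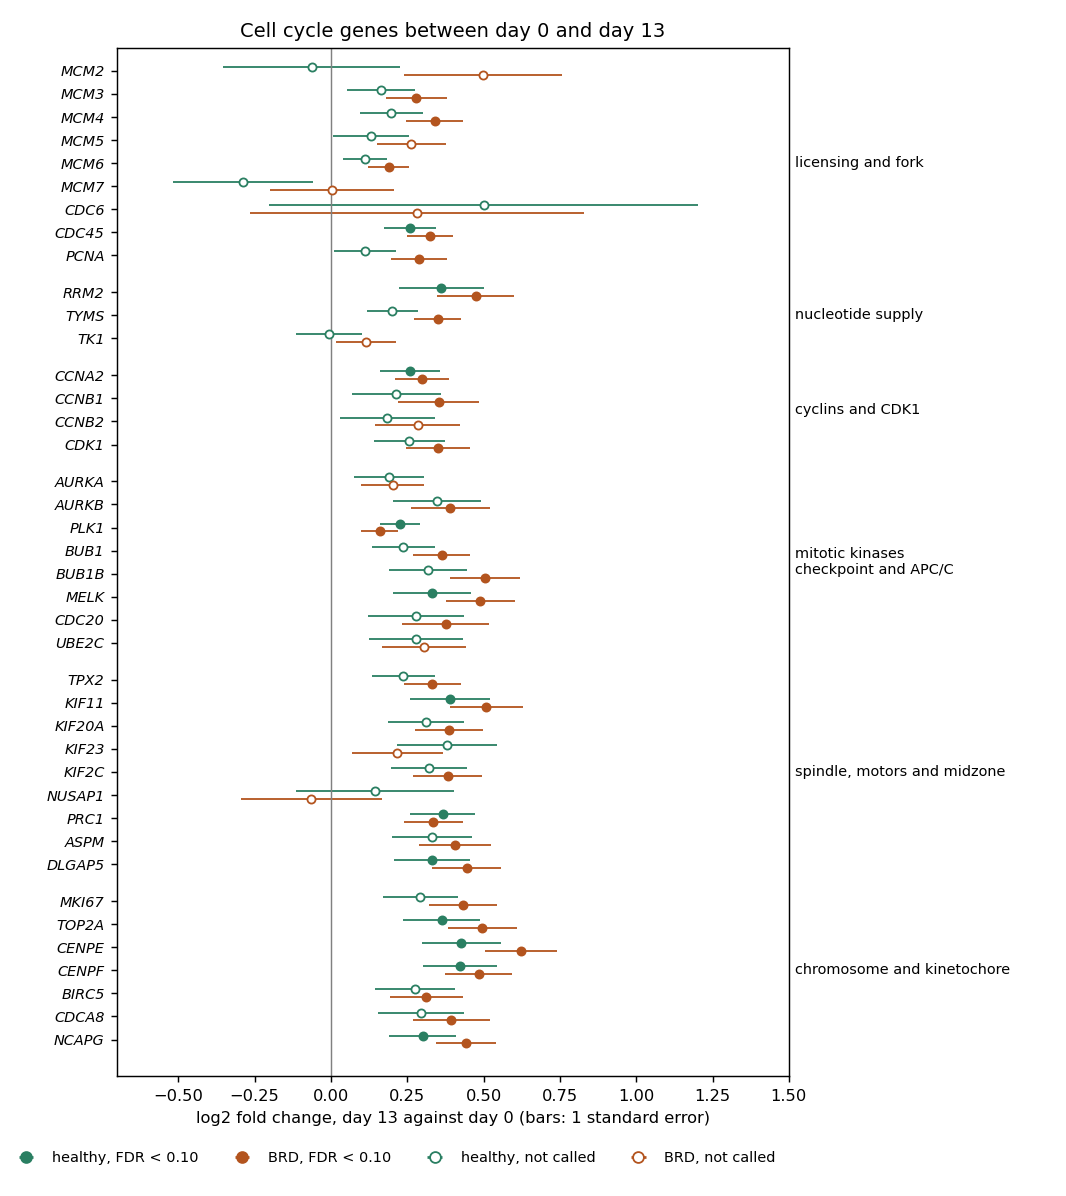
The log2 difference between day 13 and day 0 (x axis) for each of the 40 members (y axis, ordered by role), for healthy and BRD steers. Points are estimates within steers, bars 1 standard error, and filled points passed an FDR of 0.10. In BRD 30 members and in healthy steers 12 are filled, all to the right of 0.

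The chromosome and kinetochore proteins were the role in which every member rose in BRD, 7 of 7, and 4 of 7 rose in healthy steers. CENPE, the kinetochore motor that pulls chromosomes to the spindle equator, had the largest difference of the members called. In BRD it ran from 8.12 to 21.53 CPM on day 0 (median 11.6) and from 11.2 to 31.3 on day 13 (median 17.8), and was higher in 13 of 14 steers (log2 difference 0.62, SE 0.12, adjusted p = 6.67e-05). In healthy steers it ran from 9.11 to 18.42 on day 0 (median 12.7) and from 12.9 to 28.3 on day 13 (median 17.7), and was higher in 10 of 11 (0.43, SE 0.13, adjusted p = 0.0309). The ranges of the 2 days overlapped under both labels, and the difference was seen within steers rather than as a separation of the days.

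TOP2A, the topoisomerase that untangles sister DNA, had a median of 56.7 CPM in BRD on day 0 (36.3 to 109.5) and of 83.7 on day 13 (57.7 to 122.65). It rose in 13 of 14 steers (log2 difference 0.50, SE 0.11, adjusted p = 0.00103), and in healthy steers it went from a median of 62.6 (41.6 to 78.7) to 73.8 (54.9 to 142) and was higher in 8 of 11 (0.36, SE 0.12, adjusted p = 0.0603). The highest healthy library on day 13 exceeded every healthy library of day 0. MKI67, the Ki-67 antigen that coats mitotic chromosomes and serves as the usual marker of dividing cells, ran from 141 to 520 CPM in BRD on day 0 (median 265) and from 224 to 541 on day 13 (median 373). Its difference was called in BRD, with higher values in 11 of 14 steers (0.43, SE 0.11, adjusted p = 0.00454). In healthy steers MKI67 was 189 to 420 (median 292) and 254 to 603 (median 330), higher in 7 of 11, and was not called (0.29, SE 0.12, adjusted p = 0.139). CENPF, a kinetochore protein (0.48 in BRD, 0.42 in healthy steers), and NCAPG, a condensin subunit that compacts chromosomes (0.44 and 0.30), were called under both labels. BIRC5 and CDCA8, partners of AURKB in the chromosomal passenger complex, were called in BRD alone, with 0.31 and 0.39 against 0.28 and 0.30 in healthy steers, and the difference between the labels was not called for either.

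Among the 9 licensing and replication fork genes 5 rose in BRD and 1 in healthy steers. That gene was CDC45, whose CPM in BRD was 6.59 to 16.5 on day 0 (median 12.1) and 11.9 to 19.1 on day 13 (median 14.7). It was higher in 13 of 14 steers with BRD (log2 difference 0.32, SE 0.076, adjusted p = 0.00154). In healthy steers it was 10.4 to 16.5 (median 12.2) and 12.03 to 20.5 (median 13.8), higher in 9 of 11 (0.26, SE 0.084, adjusted p = 0.0461). The BRD shift was marked by the loss of the lowest values, since no library fell under 11.9 on day 13. PCNA, the sliding clamp of the DNA polymerases, was 44.01 to 107.97 CPM in BRD on day 0 (median 71.41) and 60.0 to 116.15 on day 13 (median 84.8), and rose (0.29, SE 0.091, adjusted p = 0.0239). In healthy steers the medians of PCNA were 71.7 and 70.6 (54.8 to 89.5, then 61 to 120.58), and the difference was 0.11 (SE 0.10, adjusted p = 0.552). The helicase subunits MCM3, MCM4 and MCM6 rose in BRD (0.28, 0.34 and 0.19). MCM2, MCM5, MCM7 and CDC6 were called under neither label, with 0.50 (SE 0.26), 0.26, 0.0041 and 0.28 (SE 0.55) in BRD.

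Of the 3 nucleotide enzymes, RRM2 and TYMS rose in BRD and TK1 did not pass the test. TYMS, which makes thymidylate, was 14.2 to 28.3 CPM in BRD on day 0 (median 17.97) and 17.5 to 29.2 on day 13 (median 24.9). It was higher in 13 of 14 steers (0.35, SE 0.076, adjusted p = 0.000601), whereas in healthy steers it was 17.2 to 23.7 (median 20.03) and 16.97 to 34.7 (median 21.4), higher in 6 of 11 and not called (0.20, SE 0.084, adjusted p = 0.136). The lowest healthy libraries of both days were thus about level, and the highest lay on day 13. RRM2, the regulated subunit of ribonucleotide reductase, was called under both labels (0.47 in BRD, 0.36 in healthy steers). TK1, which salvages thymidine, differed by 0.12 in BRD and by -0.0074 in healthy steers.

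Of the cyclins and CDK1, CCNA2, the cyclin of S phase and G2, rose under both labels. It was 11.1 to 30.3 CPM (median 17.7) and 16.6 to 31.2 (median 23.2) in BRD, higher in 12 of 14 steers (0.30, SE 0.089, adjusted p = 0.0151). Its healthy values were 11.01 to 22.7 (median 18.9) and 15.9 to 35.6 (median 19.2), higher in 6 of 11 steers (0.26, SE 0.098, adjusted p = 0.0916). The healthy medians thus lay close together, and the call came with high values in part of the steers. CDK1, the kinase of mitotic entry, was 8.175 to 24.8 (median 14.03) and 11.5 to 26.0 (median 21.1) in BRD and rose (0.35, SE 0.10, adjusted p = 0.0153). In healthy steers CDK1 was 11.4 to 19.8 (median 14.8) and 13.5 to 31.3 (median 16.402), higher in 8 of 11 and not called (0.26, SE 0.12, adjusted p = 0.172). CCNB1 rose in BRD (0.35), and CCNB2 was called under neither label.

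Of the 8 mitotic kinase, checkpoint and APC/C genes 6 rose in BRD and 2 in healthy steers. BUB1B, a spindle checkpoint kinase, was 6.70 to 19.8 CPM (median 10.24) and 9.72 to 22.3 (median 15.7) in BRD, higher in 12 of 14 steers (0.50, SE 0.12, adjusted p = 0.00114). In healthy steers it was 7.78 to 14.8 (median 11.5) and 9.43 to 25.3 (median 13.8), higher in 8 of 11 and not called (0.32, SE 0.13, adjusted p = 0.117). PLK1 and the kinase MELK were called under both labels, PLK1 at 0.16 in BRD, where it was higher in 8 of 14 steers, and at 0.23 in healthy steers, where it was higher in 11 of 11, and MELK at 0.49 and 0.33. BUB1, AURKB and CDC20, an activator of the anaphase-promoting complex, were called in BRD (0.36, 0.39 and 0.38). AURKA, which matures centrosomes, and UBE2C, the ubiquitin carrier of the anaphase-promoting complex, were called under neither label (0.20 and 0.30 in BRD).

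Of the 9 spindle, motor and midzone genes 7 rose in BRD and 3 in healthy steers. KIF11, the motor that separates the spindle poles, was 11.1 to 43.1 CPM (median 20.9) and 20.3 to 46.9 (median 30.4) in BRD, higher in 12 of 14 steers (0.51, SE 0.12, adjusted p = 0.00136). Its healthy values were 15.4 to 30.1 (median 22.9) and 19.2 to 52.4 (median 28.9), higher in 9 of 11 (0.39, SE 0.13, adjusted p = 0.0538). PRC1, which bundles midzone microtubules, and the spindle protein DLGAP5 were also called under both labels, PRC1 at 0.34 in BRD and 0.37 in healthy steers and DLGAP5 at 0.44 and 0.33. TPX2, KIF20A, the depolymerising motor KIF2C and the spindle pole protein ASPM rose in BRD, by 0.33 to 0.41. KIF23 (0.22) and NUSAP1 (-0.064, SE 0.23) did not pass the test in BRD.

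**Figure D3:**
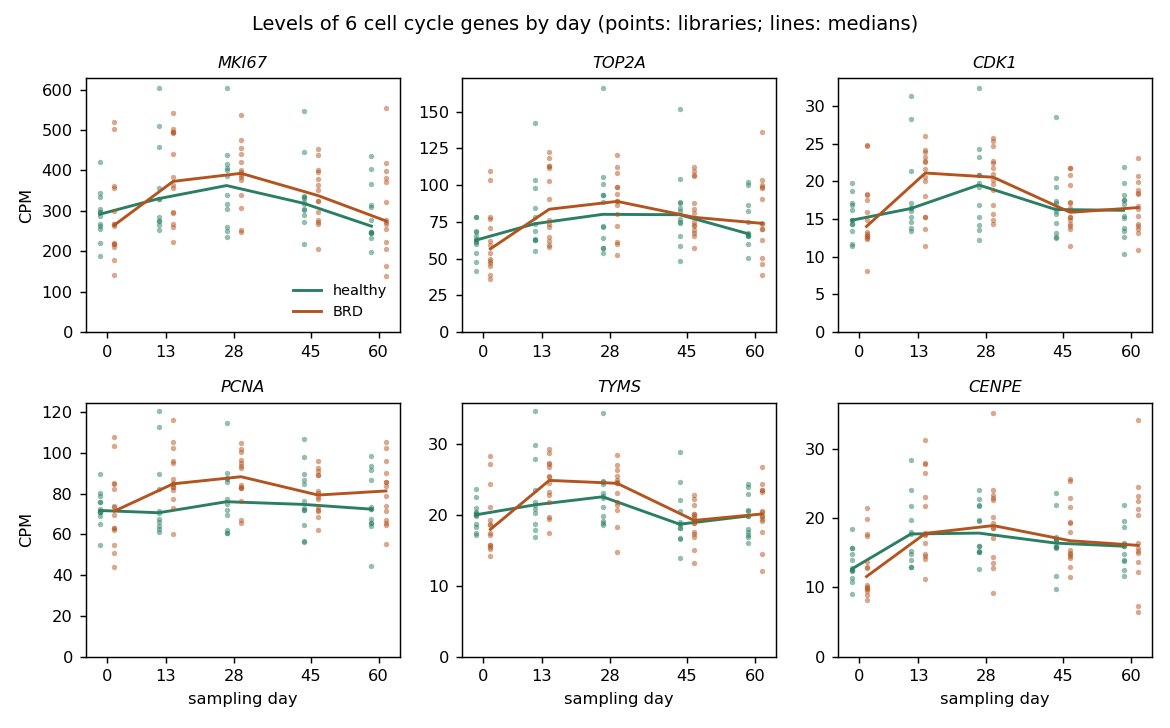
CPM of MKI67, TOP2A, CDK1, PCNA, TYMS and CENPE (y axes, linear) in each library against sampling day (x axis), healthy and BRD steers side by side. Points are libraries and lines join the medians. The BRD medians of MKI67 go from 265 on day 0 to 373 on day 13, 393 on day 28 and 275 on day 60, with overlap between all days.

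The neighbouring parts of the cell cycle changed over the same interval. Of 44 other G2 and M genes tested, 30 rose in BRD and 10 in healthy steers, and none fell. The smallest p in this list was that of TROAP, a spindle protein, with 0.62 in BRD (adjusted p = 2.56e-06) and 0.40 in healthy steers (adjusted p = 0.0135), followed in BRD by CENPM (0.44) and ANLN (0.57) and in healthy steers by ANLN (0.40) and HMMR (0.47). Of 29 other S phase genes, 18 rose in BRD and 6 in healthy steers, and none fell. POLE, the leading-strand polymerase, rose by 0.49 in BRD (adjusted p = 4.66e-05), with EXO1 (0.61) next, and in healthy steers RFC5 (0.22), CLSPN (0.35) and EXO1 (0.39) led. The medians over all members of these lists were 0.36 and 0.25 in BRD and 0.24 and 0.17 in healthy steers.

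Genes of G1 control moved in both directions. Of 25 tested, 10 rose and 2 fell in BRD, and 5 rose and 1 fell in healthy steers. CCNE2, the cyclin that opens S phase, rose by 0.43 in BRD (adjusted p = 3.61e-05) and 0.35 in healthy steers (adjusted p = 0.00557), and TFDP1 (0.23 in BRD, 0.16 in healthy steers) and E2F7 (0.59 and 0.48) rose under both labels as well. CCND3, a D-type cyclin of lymphocytes, went the other way, from a median of 554 CPM (464 to 800) to 430 (358 to 497) in healthy steers and from 497 (419 to 726) to 414 (365 to 624) in BRD. It fell by 0.45 on the log2 scale in healthy steers (adjusted p = 5.05e-08) and by 0.27 in BRD (adjusted p = 0.000115). CDKN1A, the inhibitor p21, also fell, from a median of 39.1 CPM (14.4 to 157) to 17.95 (9.94 to 30.5) in healthy steers and from 38.28 (12.2 to 87.9) to 19.9 (7.38 to 47.3) in BRD, or by 1.39 (adjusted p = 0.000149) and 0.998 (adjusted p = 0.00137). Of the 8 CDK inhibitors tested the others were not called, other than CDKN2C in BRD (0.26, adjusted p = 0.0941).

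**Figure D4:**
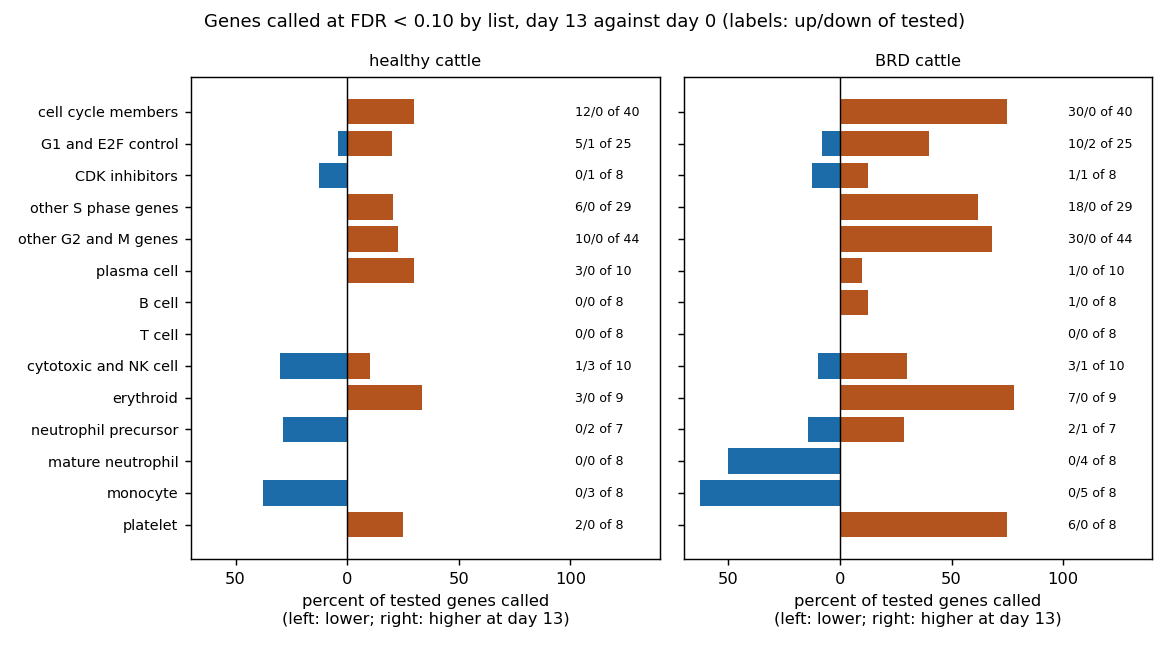
Percent of tested genes called higher or lower on day 13 than on day 0 (x axis) for the members, the other cell cycle lists and the cell type marker lists (y axis), for healthy and BRD steers. The members reach 30 of 40 in BRD and 12 of 40 in healthy steers. All genes tested, which are not drawn, gave 9.08% and 6.11% called higher.

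Markers of several blood cell types moved over the same interval, and their part in the result was not tested. Erythroid markers rose in 7 of 9 in BRD and 3 of 9 in healthy steers, their summed CPM going from a median of 48.8 (35.9 to 143) to 155 (70.96 to 1177) in BRD and from 58.3 (34.3 to 77.8) to 106.5 (49.3 to 406) in healthy steers. Platelet markers rose in 6 of 8 and 2 of 8, monocyte markers fell in 5 of 8 and 3 of 8, and mature neutrophil markers fell in 4 of 8 in BRD and in 0 of 8 in healthy steers, where 1 had an unadjusted p under 0.05. Of the 7 neutrophil precursor markers tested, AZU1 (1.84) and MPO (0.86) rose and BPI fell (-1.95) in BRD, and BPI (-1.83) and CEBPE (-1.05) fell in healthy steers. AZU1 was near the floor, with a median of 0.0776 CPM over all libraries and 0 in 30 of them. Their summed CPM, most of it BPI on day 0, went from a median of 52.3 to 17.95 in BRD and from 46.3 to 18.6 in healthy steers. Of the 10 cytotoxic and NK cell markers tested, GZMA (0.68), GZMK (0.72) and GZMB (0.79) rose and NCR1 fell (-0.47) in BRD, whereas GZMK rose (0.89) and CCL5 (-0.87), PRF1 (-0.42) and NCR1 (-0.48) fell in healthy steers. Plasma cell markers rose in 1 of 10 in BRD and 3 of 10 in healthy steers, with summed CPM of 809 to 2308 on day 0 and 836 to 2310 on day 13 in BRD and of 877 to 1760 and 850 to 2311 in healthy steers. Of the B cell markers 1 of 8 rose in BRD, and no T cell marker was called under either label, nor had an unadjusted p under 0.05.

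Between days 13 and 28 no member was called by edgeR under either label, where all genes gave 0.0686% in healthy steers and 0.602% in BRD. At an unadjusted p under 0.05 there were 0 members in healthy steers (5.69% of all genes) and 1 in BRD, NUSAP1 (9.54% of all genes), and DESeq2 called 0 under both. The medians of MKI67 stood at 363 CPM in healthy steers and 393 in BRD on day 28, and those of TYMS at 22.6 and 24.47.

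From day 28 to day 45 few members were called lower, in shares near or under those of all genes. In BRD these were TYMS (log2 difference -0.30, SE 0.076, adjusted p = 0.00581), CDC45 (-0.30, SE 0.076, adjusted p = 0.00684) and CDK1 (-0.28, SE 0.10, adjusted p = 0.0773), where 6.31% of all genes were called lower. The median over the members was -0.19 against -0.0085 over all genes, 38 of the 40 were below 0, and the mean of the members was lower on day 45 in 13 of 14 steers, by -0.179 ± 0.122 on average. Median TYMS went from 24.47 to 19.2 CPM, CDC45 from 14.8 to 11.8 and CDK1 from 20.5 to 15.9, with overlapping ranges. In healthy steers only CDC45 fell (-0.25, SE 0.082, adjusted p = 0.0474), from a median of 14.32 to 13.31 CPM, where 6.2% of all genes were called lower, and the mean of the members was lower in 7 of 12 steers. That count was 0 without AAC animal 34 and 2 without INR animal 7, INR animal 10 or COMBO animal 42.

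The other cell cycle lists were read against the same shares called lower between days 28 and 45, and against 6.18% of all genes called higher in BRD and 5.06% in healthy steers. In BRD 6 of 29 other S phase genes fell, among them POLD1 (-0.21), DUT (-0.26) and RFC5 (-0.15), as did 2 of 44 other G2 and M genes, CENPK (-0.56) and TROAP (-0.33), and 3 of 25 G1 control genes, CDC25A (-0.34), MYBL2 (-0.31) and TFDP1 (-0.15). In healthy steers 2 other S phase genes fell, GINS2 (-0.32) and RFC5 (-0.16), with TROAP (-0.29), E2F7 (-0.42), CCNE2 (-0.23) and RBL1 (-0.19), while CKAP2 rose (1.13). Under both labels the share of other G2 and M genes called lower was under that of all genes. CDKN2B, the inhibitor p15, rose under both labels, by 0.77 in BRD and 0.78 in healthy steers.

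Between days 45 and 60 no member was called by edgeR, where all genes gave 0% in healthy steers and 3.23% in BRD. At an unadjusted p under 0.05 there were 0 members in healthy steers (6.58% of all genes) and 1 in BRD, CDC45 (0.19, against 14.1% of all genes), and DESeq2 called 0 under both. Leaving out INR animal 29 gave 1 call in BRD. On day 60 the mean of the members was above that steer's day 0 value in 10 of 12 healthy steers and in 8 of 14 steers with BRD.

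Whether the steps in time differed between BRD and healthy steers was tested as an interaction. No member was called for any of the 4 steps by edgeR or by DESeq2, and no gene of the 18937 was called either, so that all genes gave 0%. At an unadjusted p under 0.05 there was 1 member over the 4 steps, NUSAP1 from day 13 to day 28, where all genes gave 3.27%, 1.98%, 1.86% and 1.73% for the steps in their order. For the step from day 0 to day 13, 35 of the 40 members had a larger rise in BRD, with a median excess of 0.099 in log2 units against 0.00018 over all genes. The larger number of calls in BRD is therefore not shown to be a larger change.

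Steers with BRD were also compared with healthy steers at each day, averaged over the supplements. No member was called on any day by edgeR, where all genes gave 0.0158% on day 0, 0% on day 13, 0.00528% on day 28, 0% on day 45 and 0.00528% on day 60. At an unadjusted p under 0.05 there were 1, 0, 2, 0 and 0 members on these days, KIF23 on day 0 (0.41) and MCM7 (0.46) and TK1 (0.24) on day 28, where all genes gave 7.11%, 3.78%, 8.63%, 4.22% and 3.64%. DESeq2 and limma-voom called 0 members on each day, as did edgeR restricted to the pens that held both labels with pen as a term. The medians over the members were 0.025, 0.15, 0.13, -0.027 and 0.082 in log2 units.

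The supplements were compared at each day within healthy steers, where a difference between supplements cannot be told apart from one between pen groups. On day 28 the members were higher in AAC than in INR, although none passed the FDR of 0.10 by edgeR (0% of all genes passed it). The median difference was 0.68 against -0.028 over all genes, 38 of 40 members were above 0, and 35 had an unadjusted p under 0.05, where all genes gave 8.5%. DESeq2 called 7 members, AURKB, BUB1B, CDCA8, CDK1, DLGAP5, TOP2A and TPX2, and limma-voom called 0. The edgeR fit of the supplements held no term for the steer. Over the 5 days it gave 70 member values at an unadjusted p under 0.05 for AAC against INR and 39 for COMBO against INR. By limma-voom with the correlation within steers, these numbers were 50 and 22. In 32 of the 40 members all AAC libraries lay above all INR libraries, where all genes gave 5.22%. The members varied together across libraries, so these counts of members do not stand for separate observations. On day 0 no member had an unadjusted p under 0.05 in this comparison (3.26% of all genes), and the median difference was 0.061.

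Of TOP2A, the 4 healthy INR steers had 57.24, 57, 53.96 and 64.03 CPM on day 28 (animals 7, 10, 30 and 50). The COMBO steers had 71.9, 93.6, 93.6 and 71.5 (animals 3, 6, 42 and 57), and the AAC steers had 88.45, 100.49, 105.31 and 166 (animals 34, 46, 48 and 49). Every COMBO and AAC value thus exceeded every INR value, AAC and COMBO overlapped, and animal 49 was far above the rest. The difference between AAC and INR was 0.96 in log2 units (SE 0.22, 95% interval 0.52 to 1.40, unadjusted p = 9.09e-05, adjusted p = 0.220), and TPX2 (0.76, SE 0.18) and AURKB (1.08, SE 0.27) had the next smallest p, both at an adjusted p of 0.220.

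MKI67 had 259, 250.0, 236 and 305 CPM in the INR steers, 339, 415, 402 and 316 in COMBO and 386, 407, 439 and 604 in AAC, in the same order of animals (AAC against INR 0.78, adjusted p = 0.368). TPX2 had 31.2, 32.5, 31.6 and 36.3 in INR, 44.2, 50.03, 49.48 and 45.7 in COMBO and 50.52, 46.9, 52.8 and 75.95 in AAC. For both genes INR was lowest without overlap. NUSAP1 (-0.25) and PLK1 (-0.099) were the members below 0, and CDC45, MCM2 and CDC6 were the others without an unadjusted p under 0.05.

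**Figure D5:**
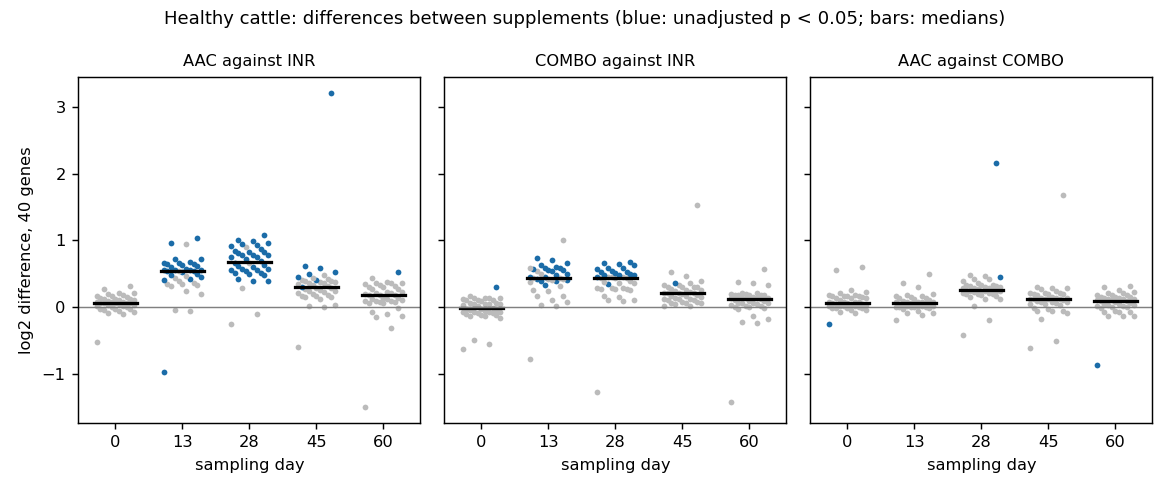
The log2 differences of the 40 members between supplements in healthy steers (y axis) by sampling day (x axis), for AAC against INR, COMBO against INR and AAC against COMBO. Points are members, blue where the unadjusted p was under 0.05, and bars are medians. For AAC against INR the medians run 0.061, 0.54, 0.68, 0.31 and 0.18 over the 5 sampling days, and no point passed an FDR of 0.10.

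COMBO steers were also above INR steers on day 28, with a median of 0.44, 17 members at an unadjusted p under 0.05 (5.06% of all genes), 22 members without overlap (2.65% of all genes) and 0 calls by edgeR, DESeq2 or limma-voom. The 17 were 4 without COMBO animal 6, 7 without INR animal 30, 8 without COMBO animal 42 and 9 without INR animal 7 or 10. AAC and COMBO share the INR steers in these comparisons, so their differences from INR are not independent of each other. Set against each other directly on day 28, AAC was higher than COMBO by a median of 0.26, with 2 members at an unadjusted p under 0.05 (8.1% of all genes), 3 without overlap (5.14% of all genes) and 0 called. Without AAC animal 49, the members at an unadjusted p under 0.05 for AAC against INR numbered 26, with a median of 0.55, and leaving out any other steer gave 33 to 36.

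On day 13 the same 2 comparisons gave 26 members (AAC against INR, median 0.54, 15.4% of all genes) and 20 (COMBO against INR, median 0.44, 8.12% of all genes) at an unadjusted p under 0.05, and 0 called, where 0.312% and 0.0383% of all genes were called. These counts hung on single steers. The 26 became 1 without AAC animal 46, 11 without INR animal 7 and 16 without INR animal 10, and the 20 became 1 without COMBO animal 3, 8 without INR animal 7, 11 without COMBO animal 42 and 12 without INR animal 10. The AAC steers of that day were 3, after removal of the library of animal 48, and without overlap there were 11 members for AAC over INR (7.48% of all genes) and 2 for COMBO over INR (0.824%). By day 45 the counts at an unadjusted p under 0.05 were 8 (8.71% of all genes) and 1 (5.75%), and by day 60 they were 1 (7.81%) and 0 (4.96%).

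Measured as the change from each steer's own day 0, 21 members differed between AAC and INR on day 28 at an unadjusted p under 0.05 (median 0.60, against 6.28% of all genes), 4 between COMBO and INR (7.6% of all genes), and 0 passed the FDR. The mean of the members was higher on day 28 than on day 0 in 4 of 4 AAC steers (0.483 ± 0.306), 4 of 4 COMBO steers (0.345 ± 0.249) and 1 of 4 INR steers (-0.0875 ± 0.335). That INR steer was animal 10, from pen 3, and the other healthy INR steers came from pen 4. Plasma cell markers differed in the same direction, with summed CPM on day 28 of 920 to 1202 in INR, 1235 to 1710 in COMBO and 1500 to 2245 in AAC, and 7 of 10 of them at an unadjusted p under 0.05 for AAC against INR. They were already 1112 to 1760 in AAC and 877 to 1253 in INR on day 0. Platelet markers differed in the other direction, with summed CPM on day 28 of 938 to 1390 in AAC, 1112 to 2693 in COMBO and 1610 to 2078 in INR, and with PF4 (-1.19) and ITGA2B (-0.27) of the 8 at an unadjusted p under 0.05 for AAC against INR. On day 0 they were 419 to 820 in AAC and 688 to 1702 in INR. On day 28, 2 of 8 mature neutrophil markers (median of the list -0.55) and 1 of 7 neutrophil precursor markers, MS4A3 (1.08), had an unadjusted p under 0.05, and none of the 8 B cell, 8 T cell, 8 monocyte, 9 erythroid or 10 cytotoxic and NK cell markers did. MS4A3 was near the floor, with a median of 0.193 CPM over all libraries and 0 in 6 of them. The part of these cell types in the difference was not tested. Of the other cell cycle lists, 22 of 29 S phase genes, 35 of 44 G2 and M genes, 9 of 25 G1 control genes and 2 of 8 CDK inhibitors had an unadjusted p under 0.05 for AAC against INR on day 28, and none was called.

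In steers with BRD few members were called between supplements, in groups of 3 to 7 steers. With so few steers per group, few calls do not show that the supplements were alike. CDC45 was higher in AAC than in COMBO on day 0 (0.56, SE 0.18, adjusted p = 0.0414), where 5.27% of all genes were called higher. The COMBO steers had 6.59, 8.87 and 10.7 CPM, below the AAC steers (11.1 to 14.2, median 13.2), and the 7 INR steers spanned 8.85 to 16.5 (median 12.2). No other member was called for AAC against COMBO on any day, nor any for COMBO against INR or AAC against INR, and over the 5 days 3, 3 and 2 member values had an unadjusted p under 0.05, against 14.8%, 6.03% and 11.7% of all genes. The call was lost without COMBO animal 18 or 54 or AAC animal 21, and without COMBO animal 16 there were 3 calls for AAC against COMBO and 2 for COMBO against INR. Without INR animal 43 there was 1 call for COMBO against INR. DESeq2 and a fit of all libraries together each called 1 member for COMBO against INR, CDC45 on day 0. With the 5 days pooled, AAC against COMBO had 3.86% of all genes called, while the comparisons with INR had 0.187% (COMBO) and 0.589% (AAC). On day 28, when the healthy INR steers had 4.18 to 4.38 as the mean of the members, the INR steers with BRD had 4.38 to 5.04, close to AAC (4.51 to 5.16) and COMBO (4.43 to 4.85) with the same label.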

How the data were processed

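Whole blood RNA of 26 steers on 5 days was sequenced by the authors with a stranded mRNA kit. Per the labels and the study's methods, the authors checked reads with FastQC 0.11.9, trimmed them with Trimmomatic 0.39, used HISAT2 to map them to ARS-UCD1.3 and StringTie 2.2.0 to assemble transcripts, and derived counts with prepDE. The deposited counts are gene-level, not normalised, and come from read coverage rather than from a direct tally. Each library's label gave its supplement, disease label, day and animal.

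Counts were analysed in R 4.3.3 with edgeR 4.0.16 (filterByExpr, TMM factors, a common dispersion, quasi-likelihood F-tests, Benjamini-Hochberg adjustment over all tested genes, FDR of 0.10). Steps in time and their interaction with the disease label were fitted on all 129 libraries (18937 genes) with animal as a block. Libraries of an animal deviated together, with a median correlation of 0.371 over 256 pairs, against -0.0101 between animals. BRD was set against healthy cattle over the 30 combinations of supplement, label and day, and supplements were compared within healthy (18269 genes) and BRD libraries (18477 genes). The biological coefficient of variation was 28.4% with the block and 36.8% to 40.2% otherwise. CPM used TMM factors, and means of log2 CPM a prior count of 2. The steers are separate animals, and no 2 libraries of a group agreed within sampling noise.

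Alternatives were DESeq2 1.42.0, limma 3.58.1 with voom, RLE factors, library totals alone, a trended dispersion, no filter, an FDR of 0.05, no block, and each animal left out. In the last, the common dispersion was held at its value with all animals. Scripts were tested on simulated data. Gene overlaps were taken from the RefSeq annotation of ARS-UCD2.0, without coordinates. Plots were made in matplotlib 3.10.9 under Python 3.11.15.

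The members and lists were chosen with earlier results of these data known. Values by group are given for MKI67, TOP2A, CDK1, PCNA and TYMS and for the member of smallest p over time in each role, and elsewhere for up to 3 called genes of smallest p per comparison and list. The marker genes GZMH, CTSG, CSF3R and FPR1 were not analysed here.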

Additional observations from a re-analysis of the deposited data

Results flagged for a closer look

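In 3 of the 24 combinations of supplement, label and day that had 4 to 10 libraries, the mean log2 CPM of the members in 1 steer stood apart from the others of its group. Chance alone marks about 1 such group in 20, or about 1 of the 24. On day 28, healthy AAC animal 49 had 5.34, where the other 3 AAC steers had 4.76, 4.81 and 4.83. On day 45, healthy INR animal 50 had 4.02, where the others had 4.48, 4.53 and 4.58. On day 60, healthy COMBO animal 42 had 4.86, where the others had 4.30, 4.38 and 4.39. Animal 42 had the highest COMBO value on days 0, 28 and 45 as well, whereas animal 50 had the highest INR value on days 13, 28 and 60.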

How the results depend on the processing

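All values named here are counts of members called. For day 13 against day 0 in healthy steers (12 as reported), the count was 7 with no filter, 1 with no replicate block and 5 at an FDR of 0.05, and it ranged from 4 to 25 with 1 animal left out. In BRD (30) it was 17 with no replicate block and 25 to 33 with 1 animal left out. Under DESeq2, RLE factors, library totals and a trended dispersion the counts were 17, 14, 18 and 10 in healthy steers and 31, 31, 31 and 30 in BRD. For day 45 against day 28 in healthy steers (1), the count was 2 with DESeq2 or RLE factors, 4 with library totals alone and 0 with no replicate block, and 0 to 2 with 1 animal left out. In BRD (3) it was 12 with library totals alone, and 2 to 4 with 1 animal left out. For day 60 against day 45 in BRD (0), library totals alone gave 1, and 1 animal left out gave 0 to 1. Between supplements, DESeq2 gave 7 for healthy AAC against INR (0), DESeq2 and a fit of all libraries each gave 1 for BRD COMBO against INR (0), and with 1 animal left out BRD AAC against COMBO (1) ranged from 0 to 3 and BRD COMBO against INR (0) from 0 to 2. With the steer as a replicate block and day 0 as baseline, BRD AAC against COMBO had 1 call, CDC45 lower on day 60. The healthy comparisons of supplements had 0 calls under the replicate block.

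No direction reversed. The mean of the members changed from day 0 to day 13 by 0.231 to 0.272 in healthy steers and 0.353 to 0.381 in BRD under other prior counts, other scalings and without the 13 overlapping members, the last chosen after seeing the data. Of the single genes followed, 34 values under alternatives lost a call and 12 gained one. The causes were not tested. With 3 to 7 steers per supplement and label, a biological coefficient of variation of 36.8% to 40.2% limits what those comparisons can detect, and counts below about 10, as for CDC6, limit that gene.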
